A study of Mus musculus with 43 samples.

Results

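The 9 genes described here encode the peptide-cleaving enzymes on the luminal surface of the proximal tubule, together with angiotensinogen. They were chosen by symbol from the deposited expression table (Ace, Agt, Enpep, Mme, Mep1a, Mep1b, Anpep, Dpp4 and Xpnpep2), and all 9 were among its 54532 genes, each under 1 gene ID. Agt encodes the substrate of the angiotensin cascade and is not itself a peptidase. The other 8 encode ectoenzymes.

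Cells of the proximal tubule carry a dense brush border of microvilli, and its enzymes cut filtered peptides into short fragments and amino acids that transporters then take up. The same surface holds much of the local angiotensin system. Renin cuts angiotensinogen to angiotensin I, Ace removes a dipeptide to make angiotensin II, and aminopeptidases then shorten angiotensin II from its other end.

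The tubule was microdissected from kidneys of C57BL/6 mice aged 6 to 8 weeks, and each RNA-seq sample held 2 to 5 tubules. The 3 groups were female S1 (the first segment after the glomerulus), female S2 and female S3, with 6, 6 and 7 libraries. The table gives 1 value per gene and segment in TPM, a length-corrected abundance scaled to a fixed total, so there is no replicate check on any difference and no SD or p-value is given. If the numbers in the sample titles stand for animals, which the labels do not say, S1 and S2 shared no animal while S3 shared 2 with each.

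All 7 S1 markers were highest in S1 and all 5 S3 markers in S3. However, 4 of the 5 S3 markers were within 2-fold between S2 and S3, and 1 was lower in S2. Summed over 7 S1 markers the level was 19281 TPM in S1, 2593 TPM in S2 and 72.7 TPM in S3, and over 5 S3 markers it was 3.2, 2193 and 3818 TPM. The 4 S2 markers summed to 399, 1414 and 880.5 TPM, and 1 of them, Slc17a3, was highest in S3. Endothelial transcripts were present in all 3 columns, with 10 of 10 markers highest in S2 and sums from S1 to S3 of 76.8, 714 and 288 TPM. Immune markers were also highest in S2 for 6 of the 7 compared (sums of 55.7, 277 and 93.1 TPM). In samples of this kind, fewer cells of a type and less RNA per cell cannot be told apart.

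The members ran in opposing gradients. Differences were taken on the log2(TPM + 1) scale, and a gene was counted when its difference reached 2-fold. Of the 9 members, 6 (Mep1a, Mep1b, Agt, Mme, Ace and Anpep) ran S1 below S2 below S3 with at least 2-fold between S1 and S3, against 9.18% of the 16053 genes with at least 1 TPM in some segment. Another 2 (Enpep and Xpnpep2) ran the other way, against 8.49% of those genes. Together, 8 of the 9 reached 2-fold between their highest and lowest segment (33.3% of all genes compared), and Dpp4 did not.

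**Figure D1:**
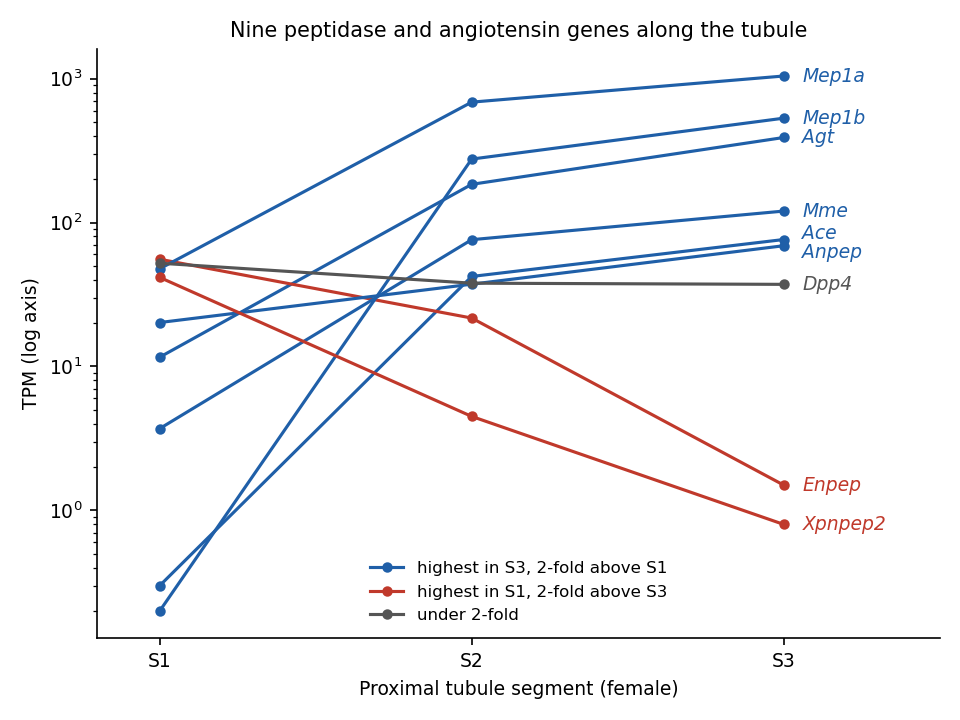
TPM (log axis) of the 9 genes in female S1, S2 and S3. Each point is the authors' single value for a segment, so no error bars can be drawn. The blue lines are highest in S3, with Mep1b at 0.2 TPM in S1 and 531 TPM in S3. The red lines, Enpep and Xpnpep2, end at 1.5 and 0.8 TPM in S3.

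Meprins were the most abundant of the 8 peptidases in S2 and S3. Mep1a encodes the alpha subunit, a metalloendopeptidase that is released from the cell unless it pairs with the membrane-anchored beta subunit encoded by Mep1b. Mep1a (ENSMUSG00000023914, chromosome 17, 43474324 to 43504143, GRCm38.p6) had 47.7 TPM in S1, against 685.8 TPM in S2 and 1042 TPM in S3. S1 was the low segment, with S2 14.4-fold and S3 21.8-fold above it. In S3 it ranked 111 in abundance among the genes compared.

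Mep1b (ENSMUSG00000024313) had 0.2 TPM in S1, against 276 TPM in S2 and 531 TPM in S3. The S1 value is near the last decimal of the table, and rounding alone places the ratio of S3 to S1 anywhere from 2123 to 3538. The difference S1 minus S3 was -8.79, and 0.0810% of the genes compared (13 genes, Mep1b included) were as low or lower in S1. The subunits were unequal in S1, where the alpha transcript stood at 47.7 TPM beside 0.2 TPM of beta. In S2 and S3 the alpha to beta ratio was 2.49 and 1.96.

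The angiotensin precursor and converting enzyme shared the meprins' direction. Agt (ENSMUSG00000031980, chromosome 8, 124556587 to 124569706), which encodes the secreted precursor, had 11.6 TPM in S1, against 184 TPM in S2 and 389.6 TPM in S3. It was 33.6-fold higher in S3 than in S1 and was the 1 member that also reached 2-fold between S2 and S3 in this direction (difference S2 minus S3 of -1.08). This count depends on the scaling, since the Agt difference was -0.99 under quantile normalization, below the threshold, and Mep1b, Anpep and Ace also passed it under median-of-ratios scaling (-1.11, -1.03 and -1.002). Ace (ENSMUSG00000020681, chromosome 11, 105967948 to 105989964) had 0.3 TPM in S1, against 42.2 TPM in S2 and 76.2 TPM in S3. Ace was thus close to the lower limit of the table in S1 and ranked 1677 in S3. Its difference was -5.05 for S1 minus S2 and -5.89 for S1 minus S3, and rounding alone allows an S3 to S1 ratio of 218 to 305. The table has 1 value for Ace and does not separate the somatic transcript from the shorter testis transcript.

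Ace is also an endothelial enzyme, so its values stand beside the endothelial markers. Ace was 1.81-fold higher in S3 than in S2, whereas all 10 endothelial markers were at least 2-fold lower in S3 than in S2 (median difference S2 minus S3 of 1.34). Ace and the markers did share the low value in S1, where all 10 were at least 2-fold below S2. The part of endothelial RNA in the difference between S1 and the later segments was not tested. The 6 podocyte markers summed to 2.6, 17.3 and 4.9 TPM from S1 to S3, most of it Podxl (1.4, 13.4 and 3.1 TPM), which encodes podocalyxin. Synpo reached 2.3 TPM in S2, and Nphs1, which encodes nephrin, was at 0.2 TPM or less in every segment. These sums were also highest in S2, and the part of podocyte RNA was not tested.

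**Figure D2:**
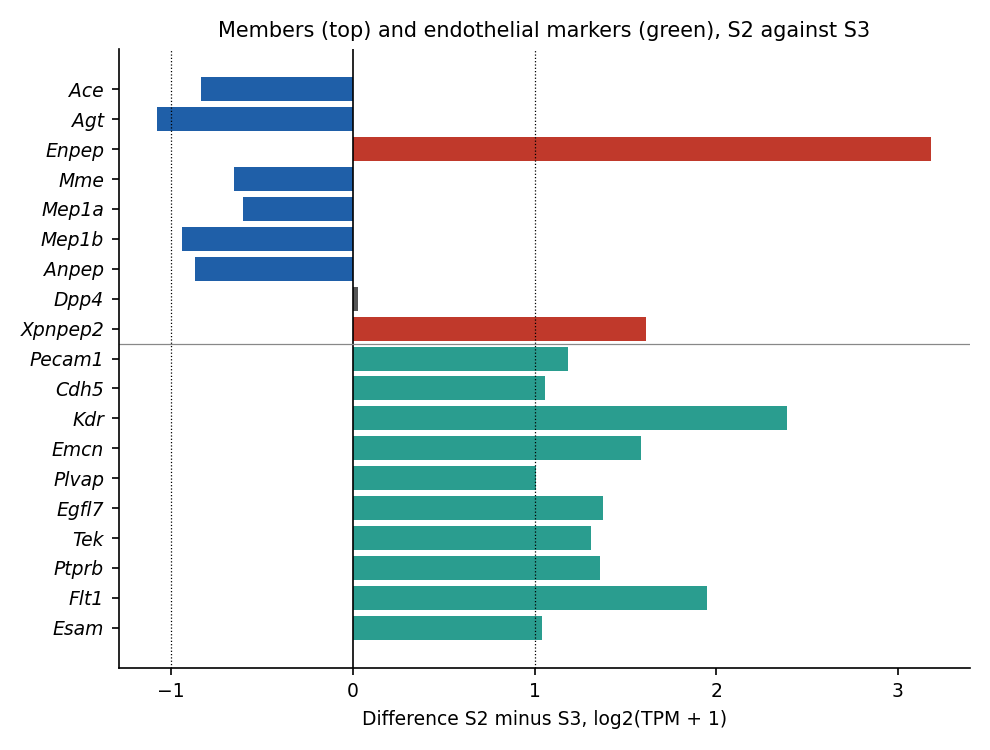
Difference S2 minus S3 in log2(TPM + 1) for the 9 members (top) and 10 endothelial markers (green). Bars are single differences without error, and dotted lines mark 2-fold. Ace lies at -0.84, while the endothelial markers are all positive with a median of 1.34.

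Neprilysin and aminopeptidase N completed the group that was highest in S3. Mme (ENSMUSG00000027820, chromosome 3, 63295211 to 63383713) encodes neprilysin, which degrades natriuretic peptides, enkephalins and kinins. Its levels were 3.7 TPM in S1, 76.0 TPM in S2 and 120.1 TPM in S3, a 32.5-fold difference between S3 and S1. Anpep (ENSMUSG00000039062, chromosome 7, 79821803 to 79848210) encodes aminopeptidase N, which removes neutral residues and shortens angiotensin III. Its levels from S1 to S3 were 20.2, 37.3 and 69.0 TPM. S2 was 1.85-fold above S1 and S3 was 1.85-fold above S2, both under the 2-fold threshold, while S3 was 3.42-fold above S1. The evenness depends on the scaling: the differences S1 minus S2 and S2 minus S3, -0.85 and -0.87 as deposited, were -0.66 and -1.03 under median-of-ratios scaling and -0.16 and -1.38 with its factors taken from all genes above 0, where the second step passed 2-fold.

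Markers of neighbouring tubule parts were also unequal between segments. The 4 loop of Henle markers summed to 3.5, 21.7 and 30.3 TPM from S1 to S3. Umod (0.2, 21.1 and 29.1 TPM) made up nearly all of it in S2 and S3, while Slc12a1 did not exceed 1.0 TPM and Slc14a2 was listed at 0 throughout. The 7 distal tubule and collecting duct markers summed to 30.1, 9.3 and 3.9 TPM. Aqp3 (28.3, 5.2 and 0.1 TPM) made up most of it in S1 and S2 but not in S3, and Aqp2 did not exceed 0.5 TPM. Umod thus had the order of these 6 members and Aqp3 that of Enpep and Xpnpep2, and the part of such cells in the differences was not tested.

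Among these 6 members the main step lay between S1 and S2 for all but Anpep. With S3 set at 0 and S1 at 1 on the log2 scale, S2 lay at 0.107 for Mep1b, 0.136 for Mep1a, 0.139 for Mme, 0.142 for Ace, 0.217 for Agt and 0.505 for Anpep. In plain TPM, S2 held between 47.3% (Agt) and 65.8% (Mep1a) of the S3 level. By their profiles over the 3 segments, Mme, Mep1a and Agt lay close together at a pseudocount of 1 (distances between mean-centred log2 values of 0.20 for Mme and Mep1a and 0.30 for Agt and Mme). The order of such pairs depends on the pseudocount: at 0.1 Agt and Mme were the closest (0.32, against 0.42 for Mme and Mep1a), and at 5 Ace and Mme were (0.11, against 0.39). The meprin subunits, which can pair, were 3.44 apart over the 3 segments (1.82 at a pseudocount of 5). Their S2 minus S3 differences were similar (-0.60 for Mep1a and -0.94 for Mep1b).

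Glutamyl aminopeptidase and aminopeptidase P had the opposite gradient. Enpep (ENSMUSG00000028024, chromosome 3, 129269177 to 129332749) encodes aminopeptidase A, which turns angiotensin II into angiotensin III by removing the acidic first residue. It had 55.6 TPM in S1, against 21.7 TPM in S2 and 1.5 TPM in S3, so that S1 was 2.56-fold above S2 and 37.1-fold above S3. In contrast to the other group, the larger step lay between S2 and S3 (14.5-fold). Enpep was the most abundant of the 9 members in S1. Xpnpep2 (ENSMUSG00000037005, chromosome X, 48106913 to 48136982) encodes the membrane-bound aminopeptidase P, which removes a first residue that stands before proline, as in bradykinin. It had 41.6 TPM in S1, against 4.5 TPM in S2 and 0.8 TPM in S3. S1 was 9.24-fold above S2, and rounding alone allows an S1 to S3 ratio of 48.9 to 55.5. Unlike Enpep, its larger step lay between S1 and S2 (differences of 2.95 for S1 minus S2 and 1.61 for S2 minus S3).

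Dpp4 differed by less than 2-fold in the values as deposited. The gene (ENSMUSG00000035000, chromosome 2, 62330073 to 62412315) encodes dipeptidyl peptidase 4, which removes dipeptides ending in proline or alanine and inactivates incretin hormones. Its levels were 52.2 TPM in S1, 37.9 TPM in S2 and 37.2 TPM in S3. Its S1 value was 1.40-fold above its S3 value, a difference of 0.48 on the log2(TPM + 1) scale. Its difference S1 minus S2 was 0.45, and it passed 2-fold at 1.15 under median-of-ratios scaling with factors from all genes above 0.

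Counted by contrast, S1 exceeded S2 at least 2-fold for 2 members (6.62% of all genes compared) and was below it for 5 (17.7%). Those 5 were also at least 2-fold below S3 in S1, as were 9.38% of all genes. Between the ends of the tubule, S1 exceeded S3 for 2 members (10.5%) and was below it for 6 (13.1%). S2 exceeded S3 for 2 members (8.74%) and was below it for 1 (2.24%). The median member difference was -3.82 (S1 minus S2), -4.42 (S1 minus S3) and -0.65 (S2 minus S3), against -0.18, -0.01 and 0.12 for all genes compared. Between S2 and S3 the count depends on the scaling. Under median-of-ratios scaling 4 members were 2-fold lower in S2 (2.996% of all genes compared), and under quantile normalization 0 were (3.36%).

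**Figure D3:**
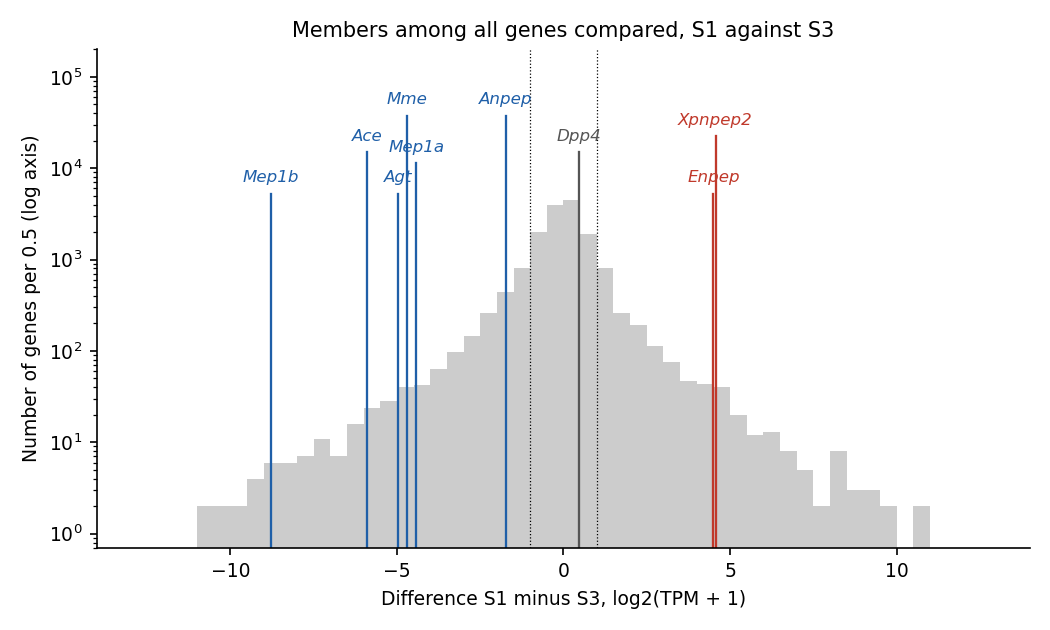
Difference S1 minus S3 in log2(TPM + 1) for the 16053 genes compared (grey, number of genes per bin on a log axis), with a line at each member's value. The height of a line has no meaning, and dotted lines mark 2-fold. Mep1b lies at -8.79 and Ace at -5.89, with Enpep at 4.50 and Xpnpep2 at 4.56 on the other side.

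The peptidase make-up of the brush border transcripts differed between segments. The 8 peptidase genes summed to 222 TPM in S1, against 1181 TPM in S2 and 1877 TPM in S3. Meprin transcripts took 21.6% of that sum in S1, 81.4% in S2 and 83.8% in S3. Without the meprins the sums were closer, at 174, 219.6 and 305 TPM. In S1, Enpep, Dpp4, Mep1a and Xpnpep2 each took between 18.8% and 25.1%. In S3 Enpep took 0.0799% and Xpnpep2 0.0426%.

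**Figure D4:**
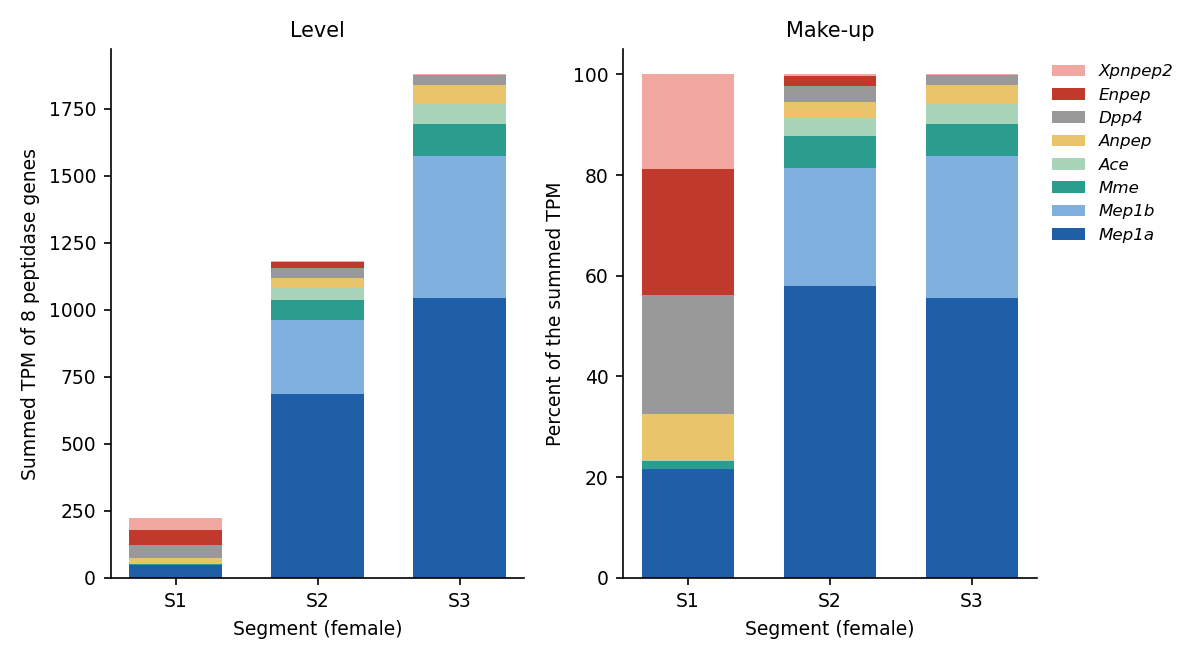
Summed TPM of the 8 peptidase genes (left) and each gene's percent of that sum (right) in female S1, S2 and S3. Bars are the authors' single values, so no error is drawn. The sum is 222 TPM in S1 and 1877 TPM in S3, and the meprins (blue) take 21.6% and 83.8% of it.

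Sequence 250 bases before to 50 after the annotated start was used for 8 of the 9 members, all but Mep1b. It came in 11 windows from RefSeq (GRCm38.p6). The windows of 3 members highest in S3 (Mep1a, Mme and Agt, chosen for their small distances at a pseudocount of 1) and of the 2 with the opposite gradient are shown 5′ to 3′ along each gene, with the annotated start at base 251. For Mme, which has 3 windows, the most upstream start is given. The starts of Mep1a and Xpnpep2 used here lie 1370 and 1812 bases inside the gene spans given above, and those of Mme, Agt and Enpep at the end of theirs. Capitals mark CAAAG or its reverse complement CTTTG, a core motif of HNF4, a nuclear receptor of proximal tubule cells.
Mep1a, chr17:43502724-43503023, minus strand: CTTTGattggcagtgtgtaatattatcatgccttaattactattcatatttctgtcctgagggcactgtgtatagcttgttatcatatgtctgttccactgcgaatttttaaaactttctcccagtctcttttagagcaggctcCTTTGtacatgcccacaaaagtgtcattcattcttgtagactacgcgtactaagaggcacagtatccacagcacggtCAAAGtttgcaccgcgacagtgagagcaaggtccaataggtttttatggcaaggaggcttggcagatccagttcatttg
Mme, chr3:63294961-63295260, plus strand: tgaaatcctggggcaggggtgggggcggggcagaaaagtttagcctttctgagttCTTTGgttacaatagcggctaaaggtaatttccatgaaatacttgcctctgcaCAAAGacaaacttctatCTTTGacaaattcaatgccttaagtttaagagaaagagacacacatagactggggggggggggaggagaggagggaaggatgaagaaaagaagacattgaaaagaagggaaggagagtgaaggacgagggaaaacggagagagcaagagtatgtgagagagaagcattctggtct
Agt, chr8:124569657-124569956, minus strand: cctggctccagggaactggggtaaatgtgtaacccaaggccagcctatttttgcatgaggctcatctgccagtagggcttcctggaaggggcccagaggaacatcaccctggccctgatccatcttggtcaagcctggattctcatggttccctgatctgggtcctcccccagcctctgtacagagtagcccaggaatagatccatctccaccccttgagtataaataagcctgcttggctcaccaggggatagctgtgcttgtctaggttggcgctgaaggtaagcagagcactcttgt
Enpep, chr3:129332700-129332999, minus strand: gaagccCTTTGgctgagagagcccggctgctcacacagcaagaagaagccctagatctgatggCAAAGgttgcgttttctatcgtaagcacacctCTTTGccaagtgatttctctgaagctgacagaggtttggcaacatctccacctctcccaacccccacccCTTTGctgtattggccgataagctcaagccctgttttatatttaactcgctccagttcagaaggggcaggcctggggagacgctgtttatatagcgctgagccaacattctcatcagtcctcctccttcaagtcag
Xpnpep2, chrX:48108475-48108774, plus strand: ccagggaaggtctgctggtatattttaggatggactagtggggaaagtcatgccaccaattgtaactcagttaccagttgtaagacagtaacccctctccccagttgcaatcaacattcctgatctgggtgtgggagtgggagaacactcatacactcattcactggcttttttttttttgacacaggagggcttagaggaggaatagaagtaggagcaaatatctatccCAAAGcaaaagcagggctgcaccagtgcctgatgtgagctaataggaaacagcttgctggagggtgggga

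The motif was in the printed windows of Mep1a, Mme, Enpep and Xpnpep2 and not in that of Agt, so it occurred on both sides of the gradient. Over all windows 8 of 11 held it, from 6 of the 8 members, against 53.9% of 32851 promoter windows of the same length. The core motif of HNF1, GTTAAT or its reverse complement ATTAAC, was in none of the 11 windows, against 7.10% of all windows. These matches describe letters only and say nothing of binding.

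Of 21 genes listed as other angiotensin and kinin genes, 13 reached 1 TPM in some segment. At least 2-fold separated the highest from the lowest segment for 6 of the 13 (46.2%, against 33.3% of all genes compared), namely Cltrn, Mas1, Atp6ap2, Klk1, Nln and Prep. S1 was at least 2-fold above S2 for 4 of these and below it for 0 (6.62% and 17.7% of all genes compared). S1 was above S3 for 3 and below it for 1 (10.5% and 13.1%). S2 was above S3 for 0 and below it for 1 (8.74% and 2.24%). The 4 higher in S1 against S2 included Cltrn, which is counted in this list and again among the carriers, where its values are given. The others were the prorenin receptor gene Atp6ap2 (137, 67.6 and 80.0 TPM from S1 to S3), the kallikrein gene Klk1 (3.8, 0.2 and 4.8 TPM) and the prolyl endopeptidase gene Prep (7.1, 2.6 and 2.1 TPM). Nln, which encodes neurolysin, had 10.2, 6.4 and 4.4 TPM, and Mas1, a receptor gene, had 0.7, 1.1 and 2.7 TPM. The median differences of the 13 were 0.34, 0.29 and 0.05, against -0.18, -0.01 and 0.12 for all genes compared. Ren1, which encodes renin, did not exceed 0.9 TPM in any segment. Agtr1a, the angiotensin II receptor, was at 39.8, 33.4 and 32.4 TPM, and Agtr1b and Agtr2 did not exceed 0.1 TPM.

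Ratios between the pathway's transcripts differed by segment. Enpep, which acts on angiotensin II, was 2.75-fold above Anpep, which acts on its product, in S1. The order was the reverse in S2, where Enpep was 0.58 of Anpep, and in S3, where it was 0.0217 of Anpep. Agt was 4.36-fold above Ace in S2 and 5.11-fold in S3. In S1, where Agt had 11.6 TPM and Ace 0.3 TPM, rounding alone allows a ratio of 33.0 to 46.6.

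**Figure D5:**
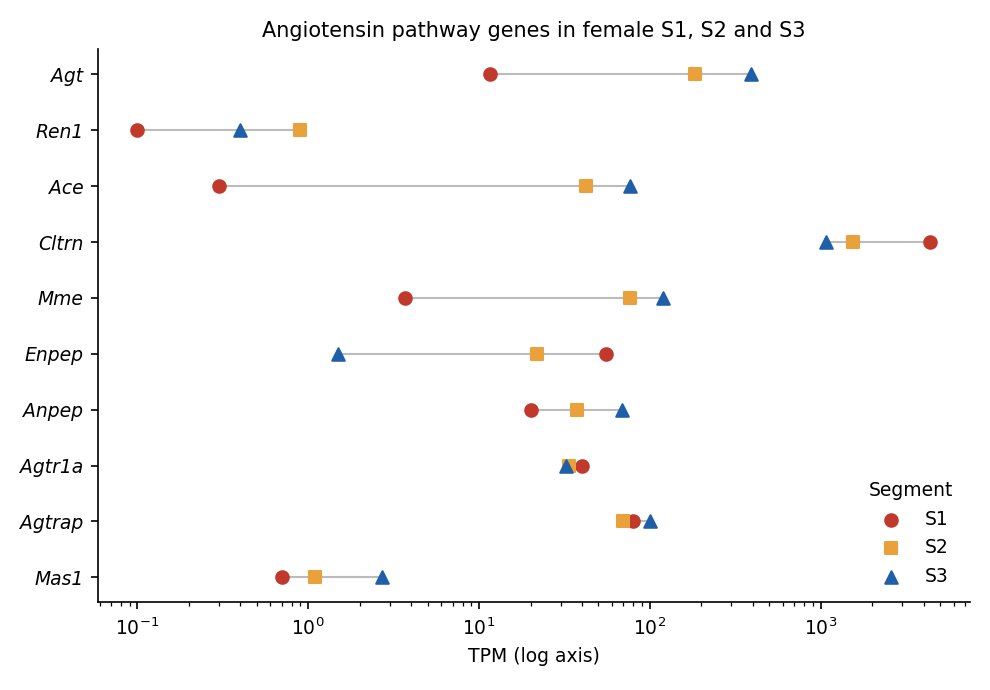
TPM (log axis) of 10 genes listed with the angiotensin pathway in female S1 (circles), S2 (squares) and S3 (triangles), the authors' single values without error. Among them, Cltrn encodes collectrin, which has no peptidase activity. Agt, Ace and Mme are lowest in S1 and Enpep is lowest in S3. Agtr1a lies between 32.4 and 39.8 TPM.

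Of 22 genes listed as other cell-surface peptidases, 15 were compared. At least 2-fold separated the highest from the lowest segment for 7 of the 15 (46.7%, against 33.3% of all genes compared). In S1, 3 were at least 2-fold above their S2 level and 3 as far below it (6.62% and 17.7% of all genes). Against S3 the counts for S1 were 4 and 2 (10.5% and 13.1%). In S2, 4 were above their S3 level and 0 below it (8.74% and 2.24%). Their median differences were -0.11, -0.17 and 0.16, against -0.18, -0.01 and 0.12 for all genes compared. Dpep1, a dipeptidase of the brush border, had 422 TPM in S1, against 20.1 TPM in S2 and 2.5 TPM in S3. Folh1, a glutamate carboxypeptidase, was at 177, 30.5 and 0.1 TPM, and Cpn1, a carboxypeptidase N subunit, at 162.5, 85.9 and 23.6 TPM. These 3 shared their order with Enpep and Xpnpep2. St14, the serine protease matriptase, was at 0.5, 17.4 and 34.7 TPM, in the order of the meprins. Ggt1 (75.1, 1305 and 1539 TPM), which splits glutathione, also had that order.

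Genes listed as intracellular peptidases, and then those listed as carriers and receptors, were set beside the same shares. Of 19 genes listed as intracellular peptidases, 8 reached 2-fold between their highest and lowest segment (42.1%, against 33.3% of all genes compared). In S1, 2 were at least 2-fold above their S2 level and 6 as far below it (6.62% and 17.7% of all genes). The counts against S3 were again 2 and 6 (10.5% and 13.1%). In S2, 1 lay at least 2-fold above its S3 level and 1 below it (8.74% and 2.24%). The 3 medians were -0.07, 0.11 and 0.13, against -0.18, -0.01 and 0.12 for all genes compared. Cndp2, a cytosolic dipeptidase, had 64.3 TPM in S1, 734 TPM in S2 and 759 TPM in S3. In the same order the aminoacylases Acy1 and Acy3 were at 51.5, 511 and 1698 TPM and at 244, 2356 and 3104 TPM. The leucine aminopeptidase Lap3 was at 103, 258.5 and 356 TPM. Cndp1 (3.3, 29.1 and 13.3 TPM) and Pm20d1 (2.7, 28.7 and 16.5 TPM) were highest in S2. Ctsa (567, 153 and 122 TPM) and Tpp1 (334, 143 and 134 TPM), both lysosomal, were highest in S1.

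Of 13 compared carriers and receptors of peptides and amino acids, 9 reached 2-fold between their highest and lowest segment (69.2%, against 33.3% of all genes compared). In S1, 3 were 2-fold above their S2 level and 5 below it (6.62% and 17.7% of all genes). Against S3 the counts for S1 were 3 and 6 (10.5% and 13.1%), and 0 reached 2-fold in S2 against S3 (8.74% higher and 2.24% lower). The medians were -0.48, -0.85 and -0.17, against -0.18, -0.01 and 0.12 for all genes compared. Slc15a2, the high-affinity carrier of di- and tripeptides, was at 51.5, 433 and 724 TPM, and Slc15a1, the low-affinity one, did not exceed 0.3 TPM. Slc3a1, which anchors the cystine carrier, was at 317, 774 and 994 TPM, its partner Slc7a9 at 471, 170 and 180.5 TPM and the glutamate carrier Slc1a1 at 89.9, 126 and 191.5 TPM. Slc6a20a, an imino acid carrier, was at 3.9, 18.7 and 21.2 TPM. The neutral amino acid carriers Slc6a19 (874, 19.2 and 15.7 TPM) and Slc6a18 (5.4, 1133 and 1805 TPM) had opposite orders. Cltrn, which encodes collectrin, a protein without peptidase activity that helps amino acid carriers to the surface, was at 4371, 1549 and 1070.1 TPM.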

How the data were processed

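Poly(A)-primed RNA-seq (SMARTer V4 with 10 to 12 PCR cycles, Nextera XT, 50-base read pairs, per the labels' protocols) covered 19 female libraries of S1, S2 and S3. The protocol names no strand marking or molecular identifiers, so overlapping genes and PCR copies cannot be separated. The other 24 samples, ATAC-seq, were not analysed here. Per the submitters' processing notes, STAR and RSEM are among the tools and mm10 is the build. The annotation, and how libraries were combined, were not stated in the labels or the file.

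Expression was deposited by the authors as TPM, 1 value per gene and segment, to 1 decimal. Depth is unknown. The table's 5 other value columns, which correspond to no RNA-seq samples in the labels, were left out.

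With pandas 2.3.3, differences were taken in log2(TPM + 1) over the 16053 genes that reached 1 TPM in some segment, and counted at 2-fold. The code was tested on simulated data. The named genes are the members and, from fixed lists, genes with at least 10 TPM that differ 2-fold, up to 8 per list, plus Ren1, Agtr1a and Cltrn. Some genes of these lists enter the counts but are not reported here by name. Other genes named (Agtr1b, Agtr2, Aqp2, Aqp3, Klk1, Mas1, Podxl, Prep, Synpo, Slc12a1, Slc14a2, Slc15a1, Slc17a3, Nphs1 and Umod) were chosen after their values were seen. A planned description of protein sequences was not made. Alternatives were other pseudocounts, filters, scalings and thresholds. The members and lists were chosen with earlier results of these data known.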

Additional observations from a re-analysis of the deposited data

How the results depend on the processing

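Each member's difference in the 3 pairs of segments was recomputed under 9 other settings and 1 chosen after seeing the data, median-of-ratios scaling with factors from all genes above 0. The segment with the highest value was the same for every member in all 10. Another pseudocount, filter on low values or threshold cannot change it, nor the sign of a difference, so only the rescalings could have. Which genes the scalings ran on (all genes above 0 or the genes compared) was settled after the results of both had been seen. No called difference changed sign. Dpp4, uncalled at 0.03 for S2 minus S3, was negative under both median-of-ratios scalings (down to -0.48). With factors from all genes above 0 the Dpp4 difference S1 minus S2, 0.45, was 1.15. Counts of members called moved most between S2 and S3, and single differences moved most for Mep1b and Ace in the contrasts with S1. Members at least 2-fold lower in S2 than in S3 numbered 1 as deposited (2.24% of all genes compared). Their number was 4 (2.996%) under median-of-ratios scaling, 0 (3.36%) under quantile normalization and 6 (6.02%) with factors from all genes above 0. It was 6 (5.6%) at a 1.5-fold threshold and 0 (0.361%) at a 4-fold threshold. The median member difference S2 minus S3, -0.65, was -1.17 with factors from all genes above 0, and at -0.65 it passed the 1.5-fold threshold. Members higher in S2 than in S3 numbered 2 as deposited (8.74% of all genes compared). With pseudocount 5 there was 1 (2.18%), with Xpnpep2 at 0.71, and at the 4-fold threshold 1 (1.76%). Members higher in S1 than in S2 numbered 1 at the 4-fold threshold (1.82%), against 2 (6.62%). The fewer or more calls at other thresholds follow from the threshold. The cause of the other changes was not tested, beyond that a scaling shifts all genes. The median of all genes, -0.18, -0.01 and 0.12 in the 3 pairs, was 0.08, 0.05 and -0.05 under quantile normalization and 0.40, 0.08 and -0.31 with factors from all genes above 0. Of all genes past 2-fold, the share higher in S1 than S2 was 27.2%, against 37.4% under median-of-ratios scaling and 46.8% under quantile normalization, and the share higher in S2 than S3 was 79.6%, against 69.9% and 61.6%. With factors from all genes above 0 the majority turned in both, to 69.1% and 43.0%. Distances between member profiles, recomputed under the same settings after seeing the data, moved by over 1.5 times in 14 cases. Differences of Ace and Mep1b from S1 depend on the pseudocount: S1 minus S3 lay between -7.58 and -3.94 for Ace and between -10.8 and -6.69 for Mep1b. No paired analysis was possible because each segment has 1 value, and no library could be left out. Without depth, values under 1 TPM cannot be given an interval.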

Other observations

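For each member the 2 genes with the most similar profile were sought among 1647 other genes with at least 100 TPM in some segment, by the distance between mean-centred log2(TPM + 1) values over the 3 segments. With 3 points per gene this is a description. Mep1a lay nearest to Guca2b, which encodes the hormone precursor uroguanylin (321.5, 4436 and 6918.5 TPM in S1, S2 and S3; distance 0.03), and then to Nudt19 (0.12), which was also the nearest to Mme (0.17). Mep1b lay nearest to Kng2, a kininogen gene (1.0, 369 and 735 TPM; distance 0.24), and Kcnk1 (0.25). Agt lay nearest to Gdpd3 (0.11) and B4galt5 (0.14), and Ace to Gbp3 (0.13) and Rnf24 (0.14).

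Within a distance of 0.5 there were 6 genes for Enpep, led by Cela1, an elastase gene (714, 243 and 24.5 TPM; distance 0.23), and Ces1d (0.28). For Xpnpep2 there were 7, led by Ttr, the thyroid hormone carrier transthyretin (185, 22.6 and 5.6 TPM; distance 0.20), and Lgals3bp (0.31). Mep1b, Mep1a, Ace, Agt and Mme had 9, 12, 13, 14 and 16 such genes. Anpep had 96, led by Myl12a (0.03) and Slc33a1 (0.07), and Dpp4 had 631, led by Snrpb (0.01) and Cct6a (0.02). The second gene for Mme was Ugt3a1 (0.18).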
